A study of Rattus norvegicus with 9 samples.

Results

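Glycolysis splits glucose into pyruvate in the cytosol, and lactate dehydrogenase turns pyruvate into lactate when it is not taken into mitochondria. The hypoxia-inducible factors (HIF) are pairs of an oxygen-labile alpha subunit with the constant subunit ARNT. At normal oxygen, prolyl hydroxylases mark the alpha subunit for destruction, and when it is stable it raises most glycolytic enzymes together with genes of mitophagy, vessel growth and feedback. In vascular smooth muscle, growth factor signalling through PI3K and mTOR is also known to raise glycolytic flux and HIF-1 alpha without a lack of oxygen.

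The genes described here are 34 named genes, 21 of glycolysis and pyruvate entry and 13 of the hypoxia response. They were chosen by name from the authors' expression table, ignoring case, and kept where the mean was at least 1 FPKM (fragments scaled by transcript length and by library size) over the 9 libraries. The names matched 37 rows, since Tpi1, Gapdh and Eno2 each have a further row spelled in capitals with another Ensembl identifier. Of these, 32 rows of 30 names passed the filter and were tested among 11376 genes. The row just inside the filter was that of TPI1 in capitals, with a mean of 1.02 FPKM, and the nearest outside was Egln3, a HIF prolyl hydroxylase, with 0.382 FPKM.

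Expression was measured by RNA sequencing of poly(A) RNA libraries from S31 cells, wild-type primary vascular smooth muscle cells derived from small vessels of the heart in male Wistar Kyoto rats. Serum was withheld for 48 h, and the cells were then kept in serum-free medium, with a growth factor at 25 ng/ml in the treated sets and none in the control. The PDGF-NS columns belong to sample records that state recombinant human IGF-1 with harvest at 24 h, the IGF-NS columns to records that state recombinant rat PDGF-BB with harvest at 48 h, and the control columns (LH-NS) were harvested at 24 h. Column name and record thus disagree on which growth factor the treated sets received, no expression value was used to settle it, and the column names are used throughout. Each set held 3 libraries. Whether these are separate cultures is not stated in the sources used here, and p-values therefore reflect variation among the libraries alone, possibly technical. For the set harvested at 48 h by record, time and growth factor cannot be told apart.

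FPKM summed to between 616765 and 748000 per library. Sums were 687686 to 748000 in PDGF-NS, 616765 to 675008 in IGF-NS and 632930 to 655517 in control. Every PDGF-NS sum was thus above those of the other sets. The spacing of low values gave relative depths of 0.66 to 1.39, where control library 1 is 1. For control libraries 2 and 3 the next most common spacing gave 1.32 and 1.56 in place of 0.66 and 0.779, so the order of depths is uncertain, and absolute depth is unknown. Of 10 smooth muscle markers 9 had a mean of at least 1 FPKM, and Myh11 was below it. Their summed level was 428 to 466 FPKM in PDGF-NS, 645 to 686 in IGF-NS and 2632 to 3769 in control, so both treated sets lay far below control. Heart muscle markers reached 1 FPKM in 2 of 10 rows (Pln and Tnnt2), with sums of 50.04 to 97.73 FPKM in PDGF-NS, 53.7 to 112 in IGF-NS and 515 to 865 in control, while Myh6, Myh7, Myl2 and Myl7 were listed at 0. Endothelial markers reached it in 2 of 11 rows (EGFL7 and Erg), with sums of 6.00 to 9.38 FPKM in PDGF-NS, 4.19 to 6.61 in IGF-NS and 10.9 to 11.1 in control, while Cdh5, Emcn and Robo4 were listed at 0. Of leukocyte markers 1 of 11 rows (Cd68) did, with sums of 1.76 to 9.76 FPKM in PDGF-NS, 0.124 to 1.32 in IGF-NS and 0.133 to 0.740 in control, while Ptprc, Aif1, C1qa, C1qb and LYZ2 were listed at 0. Fibroblast markers reached 1 FPKM in 8 of 11 rows, with Cd34 and Tcf21 listed at 0, and their summed level was 864 to 1347 FPKM in PDGF-NS, 1920 to 2031 in IGF-NS and 323 to 438 in control. The part of these marker lists in the results below was not tested. In bulk RNA, fewer cells of a type and less RNA per cell cannot be told apart.

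Not every member could be measured. Pgk1, the phosphoglycerate kinase that makes the first ATP of the pathway, and Pdha1, a subunit of pyruvate dehydrogenase, were listed at 0 in all 9 libraries. Growing cells use both, so a listed 0 may be a failed estimate. Pfkfb4, a regulator of phosphofructokinase, lay between 0 and 0.423 FPKM, Egln3 between 0.0457 and 0.889, and the capital-letter ENO2 row between 0 and 0.112. Genes of this pathway also have many near-identical copies in the genome, and how the authors divided shared reads is not given in the sources used here. Tpi1 had a mean of 5.19 FPKM and Gapdh 97.1, against 1829 for Aldoa, which acts one step earlier. Levels are therefore uncertain for Tpi1, Gapdh, Eno1, Pgam1, Ldha, Pkm and Aldoa, and for the capital-letter rows.

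In the PDGF-NS libraries most measured glycolytic genes lay above control, and in the IGF-NS libraries few passed the test. Of 32 rows, 18 rose and 1 fell in PDGF-NS against control, and 13 did not pass. In IGF-NS against control 4 rose, 2 fell and 26 did not pass. Over all 11376 genes tested, 31% were called in PDGF-NS against control (20.7% higher and 10.2% lower) and 24.9% in IGF-NS against control (17.4% higher and 7.48% lower). The median log2 fold change of the 32 rows was 0.74 in PDGF-NS, where that of all genes was 0.13, and 0.22 in IGF-NS, where that of all genes was 0.15. Calls are those of limma with Benjamini-Hochberg adjusted p under 0.05 over all genes, and each log2 fold change, given with its SE, is of FPKM + 1, which understates the change of low genes. The 2 comparisons share the control libraries. Scaling the libraries by median ratios removes the shift of all genes, and then 14 rows were higher in PDGF-NS and 4 in IGF-NS.

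**Figure D1:**
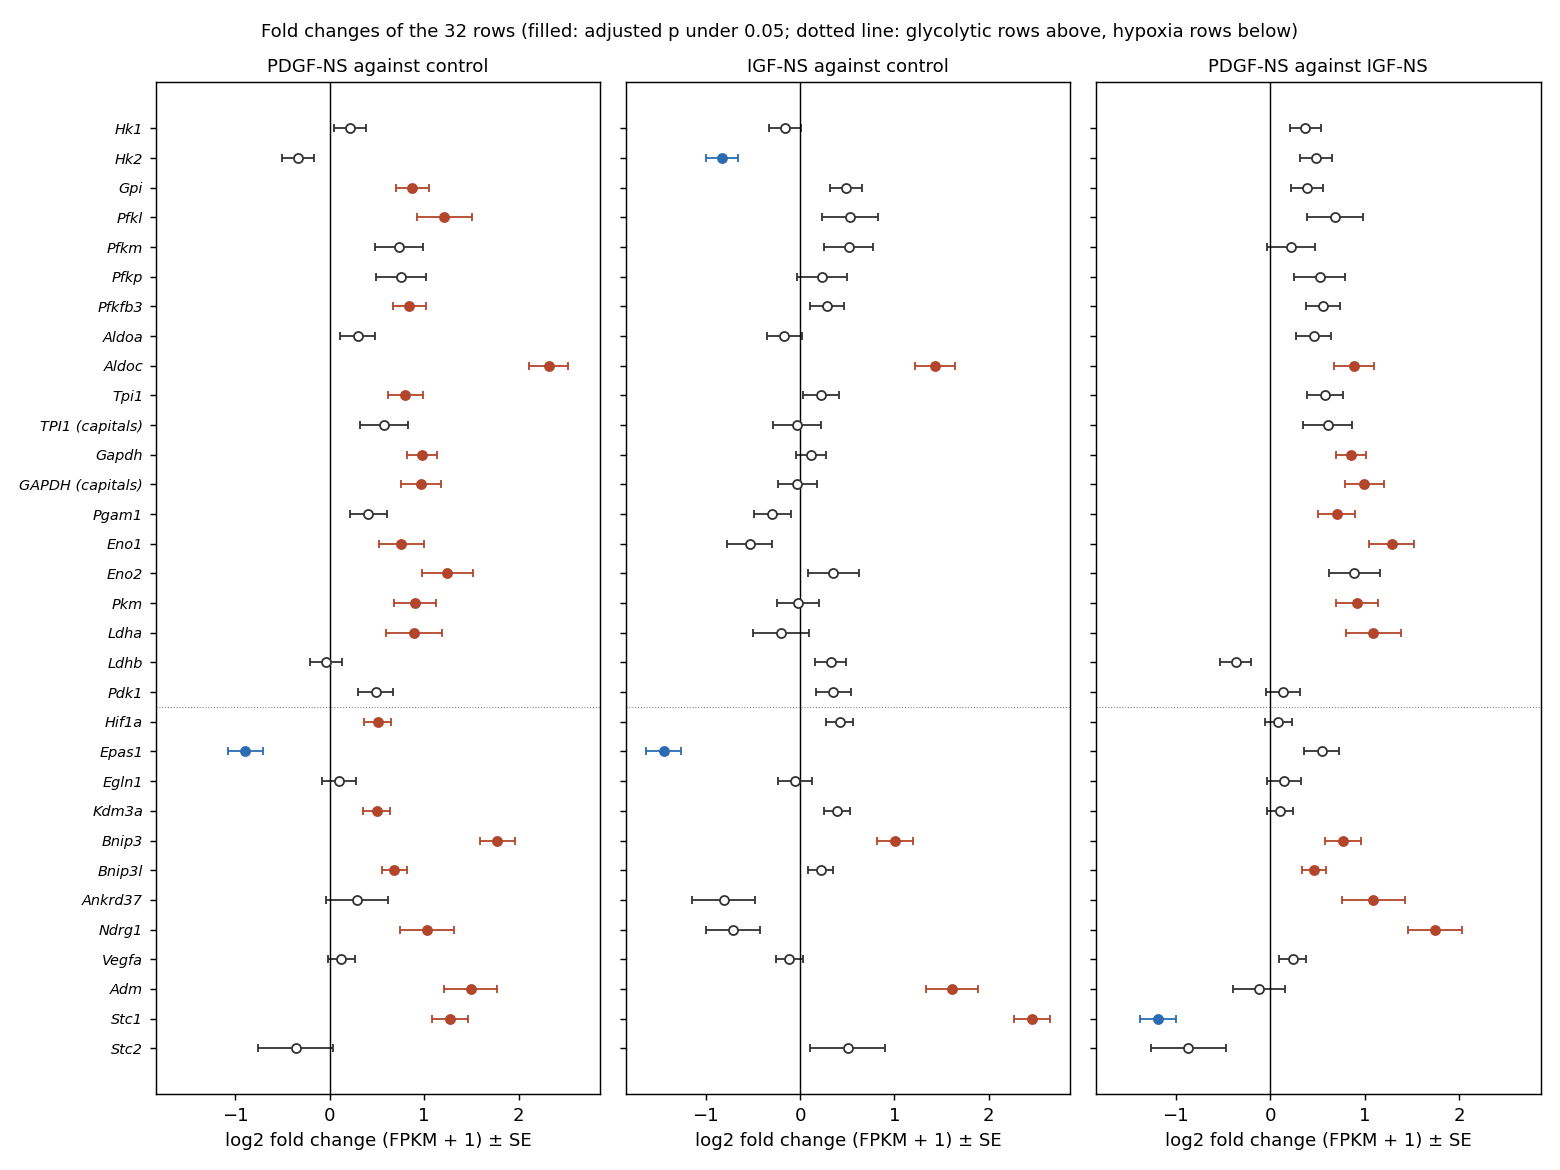
Log2 fold changes (FPKM + 1) with SE for the 32 rows in PDGF-NS against control, IGF-NS against control and PDGF-NS against IGF-NS (3 libraries each). Filled points passed an adjusted p under 0.05. Against control 18 rows rose in PDGF-NS and 4 in IGF-NS, and Aldoc, Bnip3, Adm and Stc1 rose in both.

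The promoters of 6 members are shown because they hold many, few or no copies of the core of the HIF binding site beside different responses. Ldha rose against control in PDGF-NS, Bnip3, Aldoc and Adm rose in both treated sets, Epas1 fell in both, and Ankrd37 did not pass against control in either. Each stretch covers 250 bases before to 50 bases after the start of the gene, from RefSeq on build GRCr8, read 5′ to 3′ on the gene's strand. Capitals mark ACGTG and GCGTG or their reverse complements.
Ldha, chr1:106507842-106508141, plus strand: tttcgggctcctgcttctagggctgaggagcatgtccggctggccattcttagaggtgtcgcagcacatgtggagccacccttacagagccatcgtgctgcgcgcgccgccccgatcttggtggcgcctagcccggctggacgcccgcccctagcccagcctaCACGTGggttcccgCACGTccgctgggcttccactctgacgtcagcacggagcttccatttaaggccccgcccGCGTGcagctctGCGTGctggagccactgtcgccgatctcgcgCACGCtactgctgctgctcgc
Bnip3, chr1:203154913-203155212, minus strand: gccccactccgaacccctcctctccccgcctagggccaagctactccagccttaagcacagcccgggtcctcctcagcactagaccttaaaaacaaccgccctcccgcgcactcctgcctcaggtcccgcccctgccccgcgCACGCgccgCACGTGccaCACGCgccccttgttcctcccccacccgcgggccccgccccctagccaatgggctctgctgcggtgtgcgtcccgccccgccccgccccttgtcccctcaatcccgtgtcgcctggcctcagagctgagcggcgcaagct
Aldoc, chr10:63715294-63715593, plus strand: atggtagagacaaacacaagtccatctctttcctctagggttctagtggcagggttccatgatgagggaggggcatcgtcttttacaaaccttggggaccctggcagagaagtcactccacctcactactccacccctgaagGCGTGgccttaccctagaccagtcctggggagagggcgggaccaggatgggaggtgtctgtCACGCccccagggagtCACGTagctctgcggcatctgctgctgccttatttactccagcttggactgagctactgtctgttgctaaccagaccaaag
Ankrd37, chr16:53001257-53001556, plus strand: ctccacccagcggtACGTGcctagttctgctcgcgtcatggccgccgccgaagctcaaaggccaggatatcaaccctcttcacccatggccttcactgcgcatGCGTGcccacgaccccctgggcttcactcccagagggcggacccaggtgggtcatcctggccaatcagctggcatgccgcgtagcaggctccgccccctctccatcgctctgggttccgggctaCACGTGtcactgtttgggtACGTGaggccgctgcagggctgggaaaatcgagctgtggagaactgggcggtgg
Adm, chr1:174179950-174180249, plus strand: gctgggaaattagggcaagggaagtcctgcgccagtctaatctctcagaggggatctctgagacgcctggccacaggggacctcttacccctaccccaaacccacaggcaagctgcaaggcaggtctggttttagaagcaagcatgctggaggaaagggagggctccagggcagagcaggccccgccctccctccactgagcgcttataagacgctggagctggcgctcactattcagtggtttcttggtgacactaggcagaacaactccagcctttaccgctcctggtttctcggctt
Epas1, chr6:13624680-13624979, minus strand: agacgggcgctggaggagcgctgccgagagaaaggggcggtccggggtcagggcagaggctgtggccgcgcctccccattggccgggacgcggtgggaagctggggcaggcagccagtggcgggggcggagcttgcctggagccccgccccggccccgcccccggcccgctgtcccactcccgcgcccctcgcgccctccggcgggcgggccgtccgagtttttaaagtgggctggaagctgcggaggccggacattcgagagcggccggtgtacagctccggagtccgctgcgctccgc
The Ldha window held 6 matches, Ankrd37 held 5, Bnip3 held 4 and Aldoc held 3, while Adm and Epas1 held none. The letters CACGTG, which count as a match to ACGTG on each strand, occurred once in each of Ldha, Bnip3 and Ankrd37. Over the 33 promoters of 27 members that passed and had an entry, 63.6% held at least 1 of either motif, beside 62.6% of the 8733 promoters matched by symbol to tested genes and 41.6% of all 33469. ACGTG was in 48.5% of the members' promoters, 25.8% of those of tested genes and 19.3% of all. GCGTG was in 42.4% of the members' promoters, 51.0% of those of tested genes and 29.7% of all. The median share of G and C was 63.3% in the members, 61.3% in tested genes and 51.7% in all. These matches describe letters in a window and say nothing about binding. Sites outside the window were not counted, and a link between matches and response was not tested.

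At the entry steps, the isomerase and the liver type of phosphofructokinase rose in PDGF-NS, whereas hexokinase 2 fell in IGF-NS. Hk2, the inducible hexokinase that phosphorylates glucose, had 4.06, 6.75 and 5.50 FPKM in PDGF-NS libraries 1 to 3, 3.73, 3.30 and 3.54 in IGF-NS, and 6.87, 6.77 and 7.40 in control. Every treated library was below every control library. The fall passed in IGF-NS (−0.83 ± 0.17, adjusted p = 0.00657), and the PDGF-NS value was −0.34 ± 0.17 (adjusted p = 0.153). Quantile normalization brought the PDGF-NS value past the threshold as well. Hk1, the constitutive hexokinase, ranged from 27.8 to 48.2 FPKM over all libraries, with log2 values against control of 0.21 in PDGF-NS and −0.16 in IGF-NS that did not pass.

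Gpi, glucose-6-phosphate isomerase, had 228, 345 and 307 FPKM in PDGF-NS, 211, 212 and 241 in IGF-NS, and 172, 170 and 132 in control. Both treated sets lay above control without overlap. The rise passed in PDGF-NS (0.88 ± 0.17, adjusted p = 0.00379) and the IGF-NS value was 0.49 ± 0.17 (adjusted p = 0.0640). Phosphofructokinase makes the committed step and has 3 isozymes. Its liver type Pfkl had 2.52, 6.62 and 5.34 FPKM in PDGF-NS, 2.80, 1.88 and 2.75 in IGF-NS, and 2.17, 1.09 and 1.05 in control, a rise of 1.21 ± 0.29 in PDGF-NS (adjusted p = 0.0111). PDGF-NS library 1 was close to the highest control. The muscle type Pfkm and the platelet type Pfkp had log2 values of 0.73 and 0.76 in PDGF-NS, with adjusted p of 0.0529 and 0.0539. Pfkm was the most abundant of the isozymes in every library, at 53.9% ± 2.26 of their summed FPKM in PDGF-NS, 61.7% ± 5.04 in IGF-NS and 59.8% ± 7.72 in control (SD, n = 3 each). The share of Pfkl averaged 19.0% ± 4.77 in PDGF-NS, 14.0% ± 3.78 in IGF-NS and 11.2% ± 2.51 in control. Pfkfb3 makes fructose-2,6-bisphosphate, the activator of phosphofructokinase. It had 16.6, 11.3 and 14.3 FPKM in PDGF-NS, 8.27, 8.93 and 10.2 in IGF-NS, and 5.91, 7.38 and 8.87 in control, and rose in PDGF-NS by 0.84 ± 0.18 (adjusted p = 0.00565).

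At the aldolase step the minor isozyme rose in both sets. Aldoc, the aldolase typical of brain, had 38.9, 42.8 and 33.1 FPKM in PDGF-NS, 23.6, 21.3 and 16.2 in IGF-NS, and 7.94, 8.33 and 4.77 in control. No library of one set reached into another. The rise was 2.32 ± 0.21 in PDGF-NS (adjusted p = 3.91e-05), or 5.46-fold in mean FPKM, and 1.43 ± 0.21 in IGF-NS (adjusted p = 0.00126), or 2.90-fold. Aldoa, the main aldolase of muscle, had 1659, 2719 and 2164 FPKM in PDGF-NS, 1682, 1417 and 1573 in IGF-NS, and 1878, 1522 and 1851 in control. These groups overlapped, and no comparison of Aldoa passed. Aldoc therefore rose while staying a small part of aldolase mRNA, at a ratio to Aldoa of 0.0182 ± 0.00458 in PDGF-NS, 0.0131 ± 0.00250 in IGF-NS and 0.00409 ± 0.00145 in control (SD, n = 3 each).

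In the lower part of the pathway 6 of 8 rows, from triose phosphate isomerase to pyruvate kinase, rose in PDGF-NS and 0 in IGF-NS. Gapdh and Tpi1 each enter this count also through a capital-letter row, and whether such rows share reads is unknown. Of all genes tested, 20.7% rose in PDGF-NS against control and 17.4% in IGF-NS. Gapdh, which oxidizes glyceraldehyde-3-phosphate, had 120, 146 and 160 FPKM in PDGF-NS, 69.2, 69.7 and 95.5 in IGF-NS, and 72.2, 74.9 and 67.0 in control. PDGF-NS was above both other sets without overlap, and the rise against control was 0.97 ± 0.16 (adjusted p = 0.00132). Its row in capitals, 49.8, 76.5 and 69.9 FPKM in PDGF-NS, 38.9, 29.3 and 28.2 in IGF-NS, and 25.5, 38.1 and 35.3 in control, rose by 0.97 as well. Gapdh is often used to normalize other transcripts. Tpi1, triose phosphate isomerase, rose in PDGF-NS by 0.80 ± 0.19 (adjusted p = 0.00968). It had 7.17, 7.06 and 7.43 FPKM in PDGF-NS, 5.40, 4.15 and 4.06 in IGF-NS, and 2.79, 3.51 and 5.14 in control. The TPI1 row in capitals overlapped with control and did not pass, at 0.58 ± 0.26 in PDGF-NS (adjusted p = 0.114) and −0.03 in IGF-NS.

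Eno1, the common enolase, had 33.0, 63.2 and 58.7 FPKM in PDGF-NS, 22.7, 16.4 and 20.7 in IGF-NS, and 24.0, 31.4 and 32.5 in control. Its IGF-NS libraries were all below control and its PDGF-NS libraries all above. The rise in PDGF-NS was 0.76 ± 0.24 (adjusted p = 0.0363), and the IGF-NS value was −0.53 ± 0.24 (adjusted p = 0.132). The PDGF-NS call ended in 10 of 17 other settings and leave-one-out fits, among them each of the 3 scalings. Eno2, the neuronal enolase, rose by 1.25 ± 0.27 in PDGF-NS (adjusted p = 0.00643), at 3.93, 5.80 and 4.23 FPKM in PDGF-NS against 2.38, 1.02 and 0.923 in control. Pkm, which makes pyruvate, had 188, 328 and 299 FPKM in PDGF-NS, 138, 120 and 163 in IGF-NS, and 172, 139 and 118 in control, a rise of 0.90 ± 0.22 in PDGF-NS (adjusted p = 0.0124). Pgam1, the mutase before enolase, had log2 values of 0.41 in PDGF-NS and −0.30 in IGF-NS that did not pass against control.

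Of the lactate dehydrogenase subunits, Ldha rose in PDGF-NS and Ldhb did not pass in any comparison. Ldha, which favours lactate formation, had 376, 835 and 762 FPKM in PDGF-NS, 294, 319 and 261 in IGF-NS, and 245, 357 and 423 in control. PDGF-NS library 1 lay inside the control range, and the other two were far above it. The rise in PDGF-NS was 0.89 ± 0.29 (adjusted p = 0.0423). That call ended in 11 of 17 other settings and leave-one-out fits, among them each of the 3 scalings. Ldhb, the subunit typical of heart, ranged from 80.0 to 146 FPKM, with log2 values of −0.04 in PDGF-NS and 0.33 in IGF-NS against control. The ratio of Ldha to Ldhb does not depend on library scaling. It was 4.70, 8.67 and 7.75 in PDGF-NS, 2.02, 2.77 and 2.68 in IGF-NS, and 2.64, 3.38 and 5.04 in control. PDGF-NS was above IGF-NS without overlap (exact permutation test, two-sided p = 0.1, the smallest that 3 against 3 libraries allow) and overlapped with control (exact p = 0.2). Pdk1, a kinase that shuts pyruvate dehydrogenase, had log2 values of 0.49 in PDGF-NS (adjusted p = 0.0703) and 0.35 in IGF-NS (adjusted p = 0.194).

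**Figure D2:**
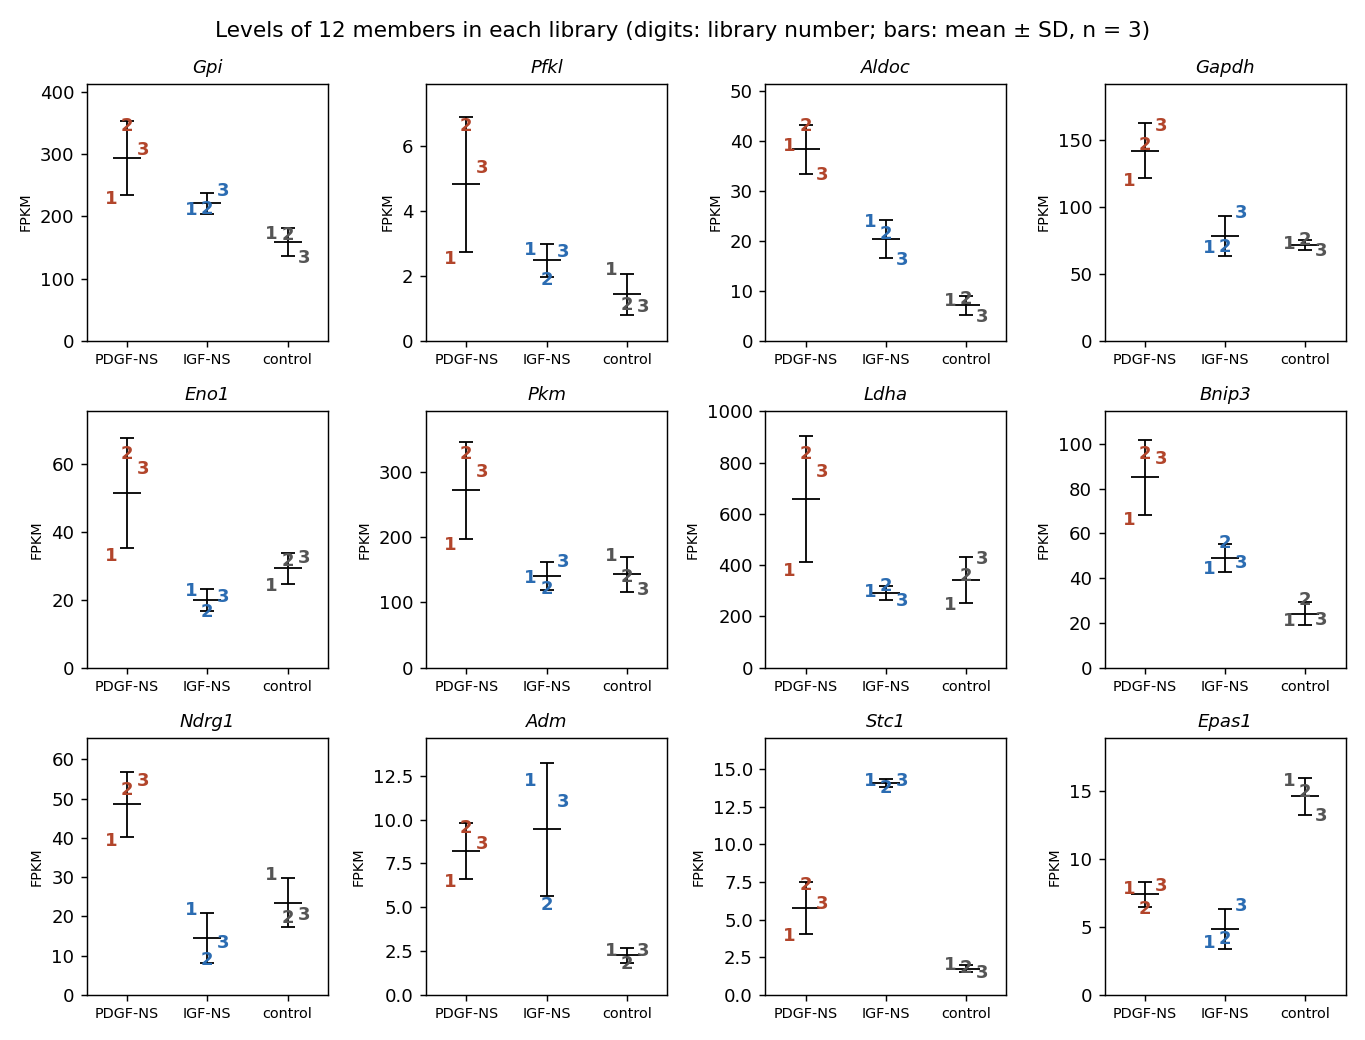
FPKM of 12 members in each library, with mean and SD of 3 libraries per set and digits for the library number. Gapdh and Ndrg1 were highest in all 3 PDGF-NS libraries, Stc1 in all 3 IGF-NS libraries and Epas1 in all 3 control libraries.

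Among the 20 glycolytic rows, 11 rose, 0 fell and 9 did not pass in PDGF-NS against control, and 1 rose, 1 fell and 18 did not pass in IGF-NS. Shares called over all genes tested were 20.7% higher and 10.2% lower in PDGF-NS, and 17.4% higher and 7.48% lower in IGF-NS. Groups were apart in the higher direction in 11 glycolytic rows in PDGF-NS and 3 in IGF-NS. Over all genes tested, 31.3% were apart in that direction in PDGF-NS and 27.5% in IGF-NS. Calls for Ldha and Eno1 in PDGF-NS against control ended under median ratio scaling (adjusted p of 0.0663 and 0.0550). Across the 17 other settings and leave-one-out fits, the Ldha call ended in 11 and the Eno1 call in 10. Within PDGF-NS, library 1 was the lowest of its set in 17 of 20 glycolytic rows and in 26 of all 32, as it was in 49.5% of all genes tested. Its median distance to the other 2 libraries was −0.50 on the log2 scale over the 32 rows and −0.08 over all genes. Its relative depth was 0.973, beside 1.39 and 1.28 in libraries 2 and 3, and the part of depth in this was not tested. Without library 1, 21 rows rose in PDGF-NS against control, with Pfkm, Pgam1 and Pdk1 added. Without library 2, and likewise without library 3, 12 rose, and the calls of Eno1, Ldha, Pkm, Hif1a, Kdm3a and Ndrg1 ended.

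**Figure D3:**
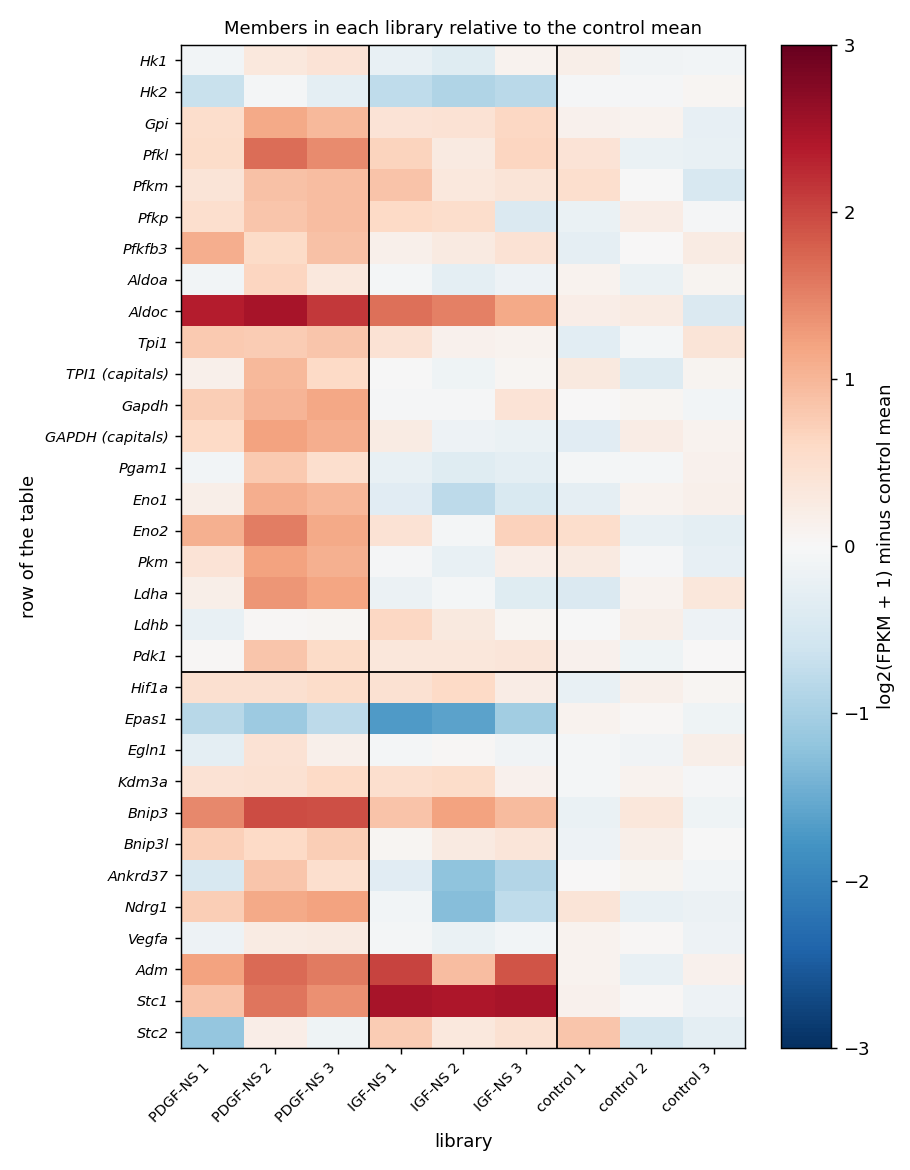
Difference of log2(FPKM + 1) from the control mean for the 32 rows (glycolytic above the line, hypoxia genes below) in the 9 libraries. PDGF-NS library 1 is paler than libraries 2 and 3 in most glycolytic rows, Aldoc and Bnip3 are high in all 6 treated libraries and Epas1 is low in them.

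In both treated sets Hif1a lay above control and Epas1 below it, though the call of Hif1a in PDGF-NS depended on scaling. Hif1a, which encodes HIF-1 alpha, had 68.4, 67.9 and 71.2 FPKM in PDGF-NS, 66.4, 73.4 and 56.5 in IGF-NS, and 41.1, 54.3 and 50.6 in control. All treated libraries were above all controls. The rise passed in PDGF-NS (0.51 ± 0.14, adjusted p = 0.0205), and the IGF-NS value was 0.42 ± 0.14 (adjusted p = 0.0521). The PDGF-NS call ended under each of the 3 scalings, with median ratios at adjusted p = 0.0739, and in 3 leave-one-out fits. Epas1, which encodes HIF-2 alpha, had 7.83, 6.33 and 8.05 FPKM in PDGF-NS, 3.84, 4.14 and 6.56 in IGF-NS, and 15.8, 15.0 and 13.2 in control. It fell in PDGF-NS by 0.90 on the log2 scale (SE 0.19, adjusted p = 0.00490) and in IGF-NS by 1.45 (SE 0.19, adjusted p = 0.000629). The mRNA ratio of Epas1 to Hif1a was 0.107 ± 0.0119 in PDGF-NS, 0.0767 ± 0.0341 in IGF-NS and 0.306 ± 0.0674 in control (SD, n = 3 each), with both treated sets below control without overlap (exact permutation p = 0.1 each). HIF alpha protein, the level at which oxygen acts, was not measured. Egln1, the main prolyl hydroxylase, ranged from 9.61 to 16.7 FPKM, and its log2 values against control were 0.09 in PDGF-NS (−0.03 under median ratio scaling) and −0.05 in IGF-NS. Kdm3a, a histone demethylase induced by HIF, rose in PDGF-NS by 0.50 ± 0.14 (adjusted p = 0.0229), a call that ended under median ratio scaling (adjusted p = 0.0756), and had 0.39 ± 0.14 in IGF-NS (adjusted p = 0.0682).

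The mitophagy receptors rose in PDGF-NS. Bnip3 marks mitochondria for removal and is a classical HIF-1 target. It had 65.9, 95.7 and 93.5 FPKM in PDGF-NS, 44.1, 55.9 and 47.0 in IGF-NS, and 20.7, 30.1 and 21.5 in control, in 3 ranges that did not overlap. The rise was 1.78 ± 0.19 in PDGF-NS (adjusted p = 0.000112), or 3.53-fold in mean FPKM, and 1.01 ± 0.19 in IGF-NS (adjusted p = 0.00464), or 2.03-fold. Its relative Bnip3l, with 60.9, 55.6 and 61.7 FPKM in PDGF-NS, 37.8, 44.0 and 46.9 in IGF-NS, and 32.7, 41.1 and 36.4 in control, rose in PDGF-NS by 0.68 ± 0.13 (adjusted p = 0.00320). The ratio of Bnip3 to Bnip3l was 1.44 ± 0.326 in PDGF-NS, 1.15 ± 0.136 in IGF-NS and 0.652 ± 0.0734 in control (SD, n = 3 each), and each treated set was above control without overlap (exact permutation p = 0.1 each).

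Among other intracellular hypoxia genes, Ndrg1 separated the treated sets without overlap and Ankrd37 did not. Ndrg1, a stress-responsive gene induced by HIF and by iron chelation, had 39.1, 52.1 and 54.6 FPKM in PDGF-NS, 21.6, 8.84 and 13.1 in IGF-NS, and 30.6, 19.6 and 20.3 in control. All PDGF-NS libraries were the highest, and IGF-NS overlapped with control only through IGF-NS library 1. The rise in PDGF-NS was 1.03 ± 0.29 (adjusted p = 0.0209), which missed the threshold without control library 2 or 3 or without PDGF-NS library 2 or 3 (adjusted p of up to 0.0757). The IGF-NS value was −0.71 ± 0.29 (adjusted p = 0.0961), and it passed under median ratio scaling (adjusted p = 0.0467) and without IGF-NS library 1 (adjusted p = 0.0254). Ankrd37, a small ankyrin-repeat protein strongly induced in hypoxic cells, had 1.58, 5.43 and 4.16 FPKM in PDGF-NS, 1.87, 0.570 and 0.950 in IGF-NS, and 2.62, 2.83 and 2.40 in control, and did not pass against control in either set, although every IGF-NS library was below every control library.

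Of the secreted factors, adrenomedullin and stanniocalcin 1 rose in both sets and Vegfa in neither. Adm, a vasodilator peptide, had 6.43, 9.55 and 8.61 FPKM in PDGF-NS, 12.2, 5.12 and 11.0 in IGF-NS, and 2.48, 1.77 and 2.52 in control, with rises of 1.49 ± 0.28 in PDGF-NS (adjusted p = 0.00276) and 1.61 ± 0.28 in IGF-NS (adjusted p = 0.00291). Every treated library was at least as high as 5.12 FPKM, above all controls. Stc1, a glycoprotein hormone that acts on calcium and phosphate handling in fish, had 3.92, 7.33 and 6.03 FPKM in PDGF-NS, 14.2, 13.8 and 14.2 in IGF-NS, and 1.97, 1.79 and 1.47 in control. The sets did not overlap. Its rise was 1.27 ± 0.19 in PDGF-NS (adjusted p = 0.000812), or 3.30-fold in mean FPKM, and 2.46 ± 0.19 in IGF-NS (adjusted p = 4.01e-05), or 8.06-fold. Stc2, its paralog, ranged from 1.41 to 8.50 FPKM with no comparison that passed. Vegfa, the endothelial growth factor that is the textbook HIF target, had 32.5, 43.7 and 44.0 FPKM in PDGF-NS, 34.7, 31.4 and 34.6 in IGF-NS, and 39.3, 37.4 and 32.7 in control. Its log2 values were 0.12 in PDGF-NS (adjusted p = 0.550), which became −0.01 under median ratio scaling, and −0.12 in IGF-NS (adjusted p = 0.598).

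In all, 7 of 12 hypoxia rows rose, 1 fell and 4 did not pass in PDGF-NS against control, and 3 rose, 1 fell and 8 did not pass in IGF-NS. Shares over all genes tested were 20.7% higher and 10.2% lower in PDGF-NS, and 17.4% higher and 7.48% lower in IGF-NS. The IGF-NS counts lie near these shares and do not set the hypoxia rows apart. All 6 calls in IGF-NS against control (Hk2, Aldoc, Epas1, Bnip3, Adm and Stc1) held in each of the 17 other settings and leave-one-out fits, and 13 of the 19 in PDGF-NS against control held in each setting that gave a value, which were 16 for Pfkl and Eno2.

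**Figure D4:**
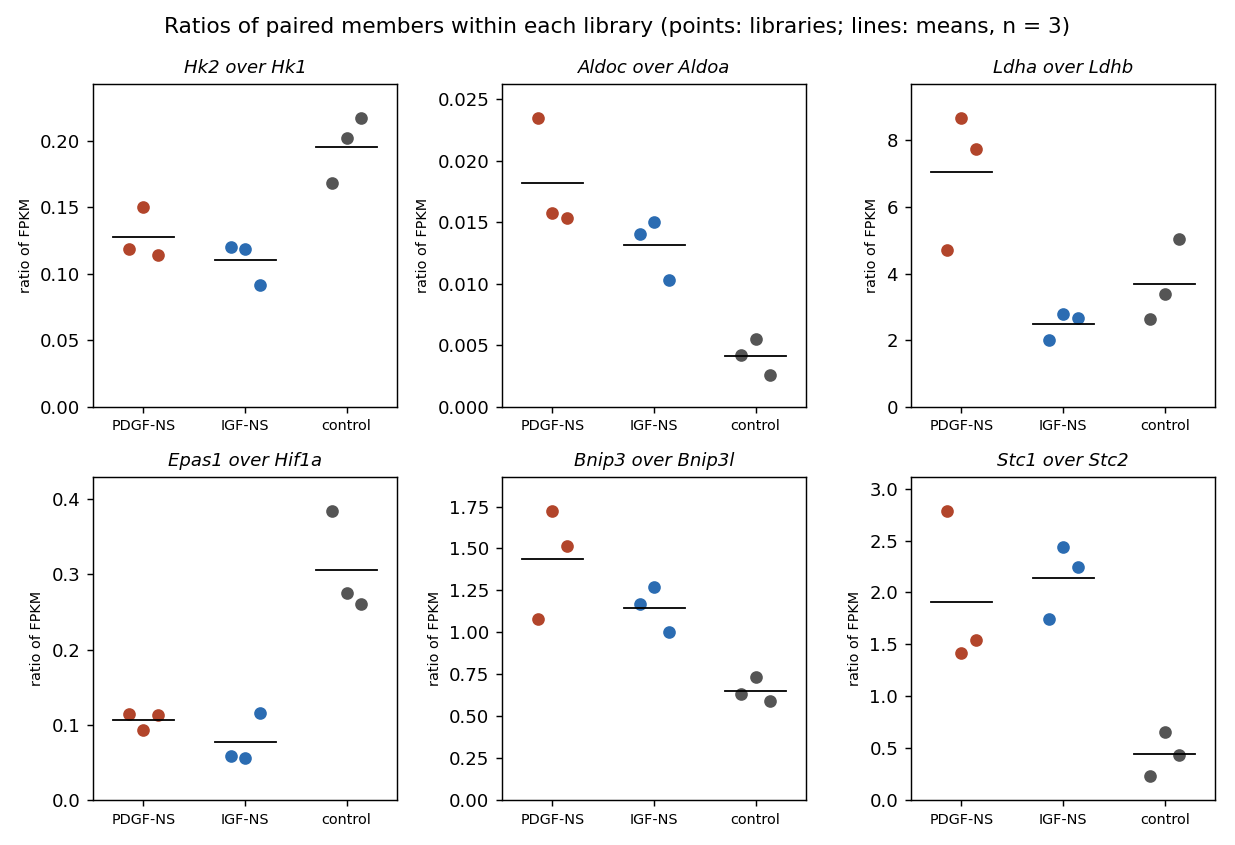
Ratios of FPKM between members of one step or family in each library, with the mean of 3 libraries per set. In both treated sets Aldoc over Aldoa, Bnip3 over Bnip3l and Stc1 over Stc2 are above control and Hk2 over Hk1 and Epas1 over Hif1a below it, while Ldha over Ldhb separates PDGF-NS from IGF-NS.

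Set directly against each other, the treated sets differed in 12 of 32 rows, with 11 higher and 1 lower in PDGF-NS against IGF-NS and 20 that did not pass. Over all genes 15.9% were called (8.33% higher and 7.55% lower), and the median log2 fold change was 0.53 for the 32 rows and −0.02 for all genes. Differences by time of harvest and by growth factor cannot be told apart here, since by record the sets were taken at 24 h and 48 h. Of the glycolytic rows 7 were higher. Eno1 differed by 1.29 ± 0.24 (adjusted p = 0.00492), Ldha by 1.09 ± 0.29 (adjusted p = 0.0307), Pkm by 0.92 ± 0.22 (adjusted p = 0.0196), Aldoc by 0.89 ± 0.21 (adjusted p = 0.0174) and Gapdh by 0.86 ± 0.16 (adjusted p = 0.00481), or 0.995 in its capital-letter row. Pgam1, with 461, 842 and 690 FPKM in PDGF-NS and 413, 380 and 393 in IGF-NS, differed by 0.71 ± 0.20 (adjusted p = 0.0352).

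Of the hypoxia genes, Ndrg1 showed the largest difference among the members, 1.75 ± 0.29 (adjusted p = 0.00248), or 3.35-fold in mean FPKM. Ankrd37 (1.09 ± 0.33, adjusted p = 0.0494), Bnip3 (0.77 ± 0.19, adjusted p = 0.0215) and Bnip3l (0.46 ± 0.13, adjusted p = 0.0369) were higher as well. Stc1 was lower in PDGF-NS by 1.19 on the log2 scale (SE 0.19, adjusted p = 0.00220). Hif1a, Epas1, Adm and Vegfa did not pass between the sets, with log2 differences of 0.09, 0.55, −0.12 and 0.24. The calls of Gapdh and its capital-letter row, Eno1, Ndrg1 and Stc1 held in every setting tried. The count of 11 higher rows became 5 without PDGF-NS library 2 or 3 and 6 without IGF-NS library 1 or 2.

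Genes around the pathway were read from lists apart from the members. Among all genes tested, 20.7% rose and 10.2% fell in PDGF-NS against control, and 17.4% rose and 7.48% fell in IGF-NS. Counts in short lists near these shares set no list apart. Of 9 carriers of glucose and lactate, 3 rose and 0 fell in PDGF-NS against control, and 2 rose and 1 fell in IGF-NS, with medians of 0.16 in PDGF-NS and −0.20 in IGF-NS. Slc2a1, the basal glucose carrier GLUT1 and a HIF target, had 37.0, 46.7 and 42.2 FPKM in PDGF-NS, 19.6, 17.5 and 24.3 in IGF-NS, and 32.6, 29.3 and 34.3 in control. It fell in IGF-NS (−0.63 ± 0.15, adjusted p = 0.0123) and was 1.01 higher in PDGF-NS than in IGF-NS. Slc2a12, the carrier GLUT12, rose by 2.07 ± 0.18 in PDGF-NS and 1.05 ± 0.18 in IGF-NS, with means of 30.6 ± 3.57 FPKM in PDGF-NS, 14.5 ± 0.596 in IGF-NS and 6.64 ± 1.77 in control (SD, n = 3 each). Slc16a7, a carrier with high affinity for pyruvate and lactate, rose by 1.90 in PDGF-NS and 0.83 in IGF-NS. Of 12 genes of glycogen and of the gluconeogenic and glycerol phosphate branches, 7 rose and 1 fell in PDGF-NS, and 4 rose and 0 fell in IGF-NS, with medians of 0.55 in PDGF-NS and 0.17 in IGF-NS. Those called include genes outside glycogen metabolism, such as GPD2 and Gpd1l, which are glycerol-3-phosphate dehydrogenases, and G6pc3, a glucose-6-phosphatase. Ppp1r3c, a HIF-responsive targeting subunit that promotes glycogen storage, rose by 1.64 in PDGF-NS and 1.15 in IGF-NS, and Ugp2, which makes UDP-glucose, by 1.39 in PDGF-NS and 0.90 in IGF-NS.

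Other genes known to be induced through HIF did not move one way. In PDGF-NS against control 11 of 36 rose, 10 fell and 15 did not pass, and 3 rose, 5 fell and 28 did not pass in IGF-NS. The shares over all genes tested were 20.7% higher and 10.2% lower in PDGF-NS, and 17.4% higher and 7.48% lower in IGF-NS. Their median was 0.14 in PDGF-NS and 0.13 in IGF-NS, where that of all genes was 0.13 in PDGF-NS and 0.15 in IGF-NS. Upp1, a uridine phosphorylase, rose in PDGF-NS by 2.65, at 19.3, 24.9 and 19.2 FPKM in PDGF-NS against 1.06, 3.52 and 3.67 in control. Ndufa4l2, a mitochondrial protein and HIF-1 target, was listed at 5.32, 11.2 and 9.32 FPKM in PDGF-NS, 5.75, 0 and 0 in IGF-NS, and 0 in all controls. Tgfb3, a TGF-beta ligand, fell in both sets (log2 values of −2.73 in PDGF-NS and −2.53 in IGF-NS). Of 15 subunits and regulators of HIF, 0 rose and 1 fell in PDGF-NS and 2 rose and 0 fell in IGF-NS, with medians of −0.03 in PDGF-NS and 0.16 in IGF-NS.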

How the data were processed

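Per the labels' protocols, Trizol was used for RNA and the Lexogen SENSE mRNA kit v2 for libraries. The submitters' processing notes name GSNAP and Cufflinks. Their versions, the build and the annotation were not given in the sources used here. Deposited by the authors were FPKM per gene and library, a normalized unit to which no count model was applied. A placeholder value in 4 rows (10 cells) was read as a failed estimate and the rows left out, as were 4 all-zero rows of duplicated identifiers. Libraries were assigned by the column name in each sample record.

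The 11376 genes that averaged 1 FPKM or more across all 9 libraries entered limma 3.58.1 (R 4.3.3). Values were log2(FPKM + 1), with a mean-variance trend and the set as the only term. All 9 libraries entered one fit. P-values are two-sided and adjusted by Benjamini-Hochberg over all genes of a comparison. Exact permutation tests for 8 within-library ratios used SciPy 1.17.1, and over the 24 tests the smallest adjusted p was 0.185. The procedure was tested on simulated data with independent noise for each gene and library, a setting without effects of a whole library. Relative depth came from the commonest ratio between low values of a library and of control library 1, and is approximate.

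Members and lists were chosen with earlier results of these data known. All members that passed the filter are described. In 8 further pathway lists, up to 3 called genes per comparison could be named by size of change, of which the text prints part. Alternatives covered the pseudocount, the filter, the scaling, the samples in the fit, a replicate block and leaving out each library.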

Additional observations from a re-analysis of the deposited data

Results flagged for a closer look

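For 7 rows the log2 values against control had opposite signs in the 2 treated sets, and the direct difference between PDGF-NS and IGF-NS passed in limma. The difference was 1.75 for Ndrg1, 1.29 for Eno1, 1.09 for Ldha, 1.09 for Ankrd37, 0.995 for the capital-letter row of Gapdh, 0.92 for Pkm and 0.71 for Pgam1, all higher in PDGF-NS. In IGF-NS none of the 7 passed against control as reported, and the IGF-NS values of Pkm (−0.02) and of the capital-letter row GAPDH (−0.03) were close to 0. In PDGF-NS against control, Ankrd37 (0.29, adjusted p = 0.546) and Pgam1 (0.41, adjusted p = 0.138) did not pass either. Between the treated sets the calls of Ndrg1, Eno1 and GAPDH held in every setting tried, and those of Ldha ended in 6 settings, of Ankrd37 in 12, of Pkm in 4 and of Pgam1 in 11, most of them fits that left out 1 library.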

How the results depend on the processing

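Counts of called rows were within 1.5 times of those reported in all settings but these. Quantile normalization called 2 rows lower in PDGF-NS against control in place of 1, Hk2 being added. When single libraries were left out, the rows called lower in IGF-NS against control ranged from 2 to 4, and those higher in PDGF-NS against IGF-NS from 5 to 13. Rows higher in PDGF-NS against control ranged from 12 to 21 when libraries were left out and were 14 under each of median ratio scaling, quantile normalization and rescaling to one common sum. For single rows, 29 of 752 values in other settings and 59 of 858 in leave-one-out fits lost a call, 9 and 22 gained one, and 0 called values changed sign. Of values called in neither fit, 10 and 23 changed sign.

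The replicate numbers were not taken to pair the libraries: deviations from the set means correlated between same-numbered libraries at −0.28 to 0.25 and between others at −0.51 to 0.41, and not every library correlated best with its own number. With the number as a block, 18 rows were higher and 1 lower in PDGF-NS against control, 4 and 2 in IGF-NS against control, and 8 and 1 in PDGF-NS against IGF-NS. With a mean of at least 5 FPKM, rows under it gave no value. Without counts, the precision that depth gives to rows at a few FPKM, such as Pfkl, Eno2, Ankrd37 and Stc2, is unknown.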

Other observations

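Pathways that branch from glycolysis or regulate it gave the following values, on lists apart from the members. Over all genes tested, 20.7% rose and 10.2% fell in PDGF-NS against control and 17.4% rose and 7.48% fell in IGF-NS, with medians of 0.13 in PDGF-NS and 0.15 in IGF-NS, and counts in short lists near these shares set no list apart. Of 12 genes of pyruvate entry into mitochondria, 5 rose and 0 fell in PDGF-NS against control and 1 rose and 0 fell in IGF-NS, with medians of 0.31 in PDGF-NS and 0.26 in IGF-NS. Dld, the dihydrolipoyl dehydrogenase shared by several mitochondrial complexes, rose in both, by 0.81 in PDGF-NS and 0.85 in IGF-NS, and Mpc2, a subunit of the pyruvate carrier, by 0.84 in PDGF-NS. Of 9 pentose phosphate genes, 3 rose in PDGF-NS and 2 in IGF-NS, and 0 fell in either, with medians of 0.26 in PDGF-NS and 0.21 in IGF-NS. Rpe, an epimerase of the non-oxidative branch, rose by 1.00 in PDGF-NS and 0.79 in IGF-NS. Among 16 regulators reported to act on glycolytic genes, 3 rose and 4 fell in PDGF-NS and 1 rose and 2 fell in IGF-NS, with medians of −0.16 in PDGF-NS and −0.06 in IGF-NS. Myc, a transcription factor known to raise glycolytic enzymes, had 18.8, 19.6 and 18.0 FPKM in PDGF-NS, 58.6, 57.8 and 67.1 in IGF-NS, and 104, 82.2 and 66.7 in control. It fell in PDGF-NS by 2.08 on the log2 scale. Txnip, an inhibitor of glucose uptake that is induced by glucose, was 0.92 higher in PDGF-NS than in IGF-NS. Bpgm, which diverts an intermediate to 2,3-bisphosphoglycerate, fell in PDGF-NS by 0.50 on the log2 scale.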
